A study of Homo sapiens with 10 samples.

Results

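The comparison described here is that of RNA levels after 2 h on nutlin-3a with those of the untreated control, in BJ cells, a line of human fibroblasts made immortal by hTERT, the catalytic subunit of telomerase. Genes were taken where either library held at least 5 FPKM (reads adjusted for the length of the transcript and the size of the library), which left 8066 genes of the 13279 listed with 1 transcript each. Both groups consisted of 1 poly(A) RNA-Seq library of cells grown in DMEM with fetal calf serum. They differ by 2 h of nutlin-3a; the labels do not say whether the control cells received the solvent, nor on which run either library was sequenced, so any effect of the run cannot be told apart from that of the drug. The study as a whole has 10 libraries of these cells, 5 of RNA-Seq and 5 of Ribo-Seq (sequencing of ribosome-protected mRNA fragments), with a control and time points of 2, 4, 6 and 19 h in each assay.

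Nutlin-3a occupies the pocket of MDM2 that binds p53, so that p53 is no longer ubiquitinated and degraded, and p53 then activates genes of cell-cycle arrest, death, repair and its own feedback. Immediate-early genes are another class of fast responders, encoding mostly transcription factors such as FOS, JUN and EGR proteins, which are switched on within minutes of growth factor or stress signals by factors already present in the cell. Their mRNAs are short-lived, and many of their products, such as the DUSP phosphatases and NFKBIA, shut the same signals off again.

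The values of the RNA-Seq libraries were scaled to 23845559 reads in the control and 26948206 reads at 2 h, the totals that fit the steps between deposited values. The median tested gene had 1259 reads in the control and 1418.5 at 2 h, and the median counting standard error (SE) of a log2 change was 0.056. With 1 library a side there is no replicate check and no test, and every SE below covers counting error alone. A gene is called higher or lower where its level, floored at 1 FPKM, differed at least 1.5-fold between the 2 libraries. The cells carried the markers of their type in both libraries. All 13 fibroblast markers were at 5 FPKM or more, led by VIM at 4194 FPKM in the control, and their summed level was 10897 FPKM in the control and 10296 at 2 h. Of 9 epithelial markers 5 were listed, and KRT18, which cultured fibroblasts also make, held most of their 306 FPKM in the control and 327 at 2 h. The listed endothelial markers (3 of 7) summed to 0.485 and 0.511 FPKM, and the listed blood cell markers (3 of 8) to 1.56 and 1.18 FPKM.

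The response at 2 h was small in number and went mostly upward. Called higher were 153 genes, which is 1.9% of those tested, and called lower were 17 genes, or 0.211%, so that 90.0% of the 170 called genes were higher. In a bulk library, fewer cells with a transcript and less of it in each cell cannot be told apart. At 2-fold there were 67 genes higher (0.831%) and 1 lower (0.0124%). Most transcripts stayed where they were, with 7265 genes (90.1%) within 1.2-fold, a median log2 change of -0.05 and quartiles of -0.12 and 0.04. The highest log2 change was 4.41, for EGR3, and the lowest was -1.03, for PPP1R3C. Among the genes called higher the median level was 12.2 FPKM in the control and 24.8 FPKM at 2 h, against a control median of 17.1 FPKM over all tested genes. Of these 153 genes, 29 were below 5 FPKM in the control and entered only through the 2 h library, and of the 17 genes called lower 10 were below 5 FPKM at 2 h and entered only through the control library. Housekeeping transcripts were level, with ACTB at 4061 and 4124 FPKM and GAPDH at 2358 and 2239 FPKM in the control and at 2 h.

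**Figure D1:**
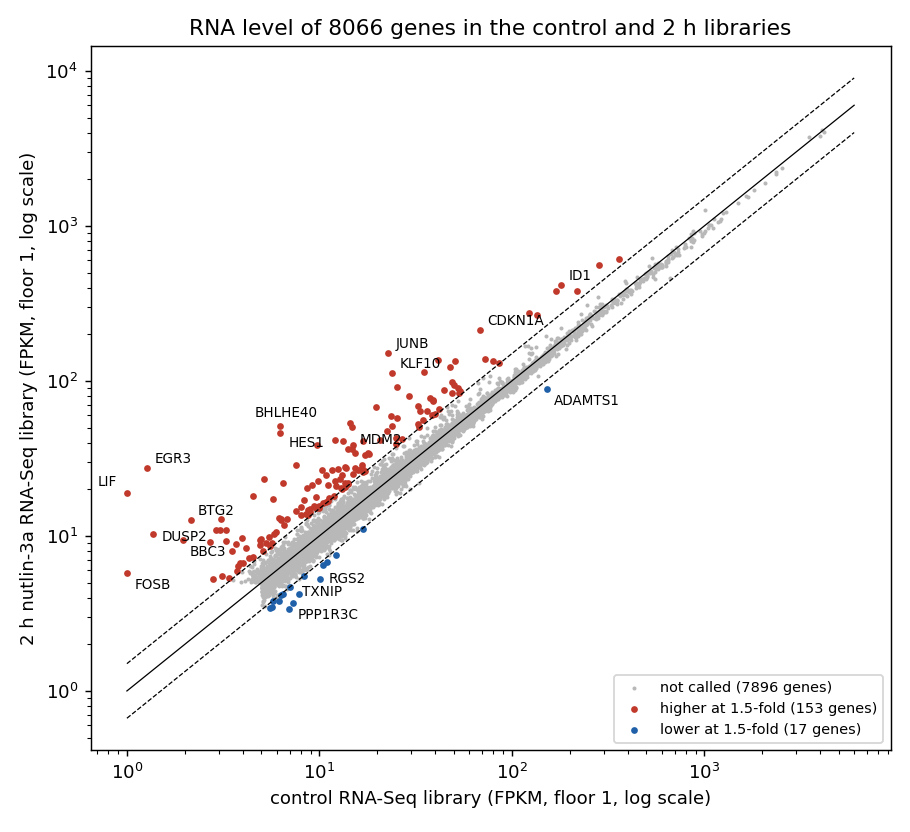
RNA level in the control library (x axis, FPKM floored at 1, log scale) against the 2 h library (y axis, same scale), 1 point a gene for 8066 genes. The solid line marks equal levels and the dashed lines 1.5-fold; 153 genes lie above the upper dashed line (red), 17 below the lower one (blue), and ADAMTS1 is the only blue gene above 20 FPKM.

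Of the lists, that of immediate-early genes held the most called genes. Of 40 genes on the list 33 were tested, and 21 (63.6%) were called higher and none lower. Over all tested genes 1.9% were called higher and 0.211% lower. The median log2 change of the 33 genes was 0.78, against -0.05 over all tested genes. The list was written with earlier results of these data known. EGR3, a zinc finger factor of the EGR family, went from 1.28 FPKM in the control to 27.2 FPKM at 2 h, a 21.3-fold difference (log2 4.41, counting SE 0.13). BHLHE40, a repressor that also feeds into the circadian clock, went from 6.24 to 51.1 FPKM (8.18-fold, log2 3.03, SE 0.07). JUNB, an AP-1 subunit, had the highest 2 h level among the members of the list that were named by rule, with 151 FPKM against 22.9 FPKM in the control (log2 2.73, SE 0.05).

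FOSB, a partner of JUN proteins, was at 0.212 FPKM in the control and 5.76 FPKM at 2 h, a 27.2-fold ratio without the floor and 5.76-fold with it. KLF10, a zinc finger repressor induced by TGF-beta, went from 23.9 to 112 FPKM and NR4A1, an orphan nuclear receptor, from 5.14 to 23.4 FPKM (log2 2.22 and 2.19). The other 15 called members had log2 changes between 0.62 (RHOB) and 1.77 (CSRNP1), and some were abundant, such as the matrix-associated SRF and YAP targets CTGF, at 169 and 383 FPKM, and CYR61, at 285 and 556 FPKM. The response did not take in the whole list. FOS itself, chosen for mention after its values were seen, was at 1.17 and 1.55 FPKM and did not reach the level needed for testing, and 12 tested members of the list were not called, among them KLF6 at 37.3 and 32.1 FPKM.

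Promoters of some of these fast responders are printed, only ones that carry a short, well known element close to the start of transcription. RefSeq promoters of build GRCh38.p14 could be matched to 6624 tested genes, 117 of them called higher, and the 250 bases before the first listed start of each gene were searched. The TATA box, searched as TATAAA on the strand of the gene, was present in 14 of the 117 promoters (12%), in 2.85% of the promoters of all tested genes and in 7.17% of all 27305 promoters in the table. In 13 of these 14 genes it lay between 20 and 40 bases before the start, where 1.39% of tested genes had one. The cyclic AMP response element TGACGTCA, which reads the same on both strands and is bound by CREB and ATF proteins, was in 8 of the 117 promoters (6.84%) and in 3.31% of those of tested genes. The serum response element, bound by SRF and searched on both strands, was in 4 of 117 (3.42%) and in 1.04% of tested genes. A match in these letters is a description of the sequence and not a shown binding site, and no test was made of these shares. The lines below give the last 130 bases before the start, 5′ to 3′ on the strand of each gene, with these 3 elements in capitals.
JUNB: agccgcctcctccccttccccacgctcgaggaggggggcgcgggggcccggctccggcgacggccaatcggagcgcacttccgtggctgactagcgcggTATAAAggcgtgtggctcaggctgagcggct
FOSB: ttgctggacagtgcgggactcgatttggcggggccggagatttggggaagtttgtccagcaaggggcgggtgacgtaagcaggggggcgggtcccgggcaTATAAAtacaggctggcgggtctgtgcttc
ID1: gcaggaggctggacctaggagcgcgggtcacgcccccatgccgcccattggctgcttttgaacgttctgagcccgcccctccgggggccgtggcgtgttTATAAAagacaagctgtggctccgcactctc
DUSP1: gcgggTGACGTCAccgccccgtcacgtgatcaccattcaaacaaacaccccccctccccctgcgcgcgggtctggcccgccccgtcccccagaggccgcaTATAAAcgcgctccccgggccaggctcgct
PPP1R15A: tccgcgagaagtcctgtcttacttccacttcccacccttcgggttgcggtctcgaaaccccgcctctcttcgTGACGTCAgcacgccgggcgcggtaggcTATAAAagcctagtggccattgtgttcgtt
EGR1: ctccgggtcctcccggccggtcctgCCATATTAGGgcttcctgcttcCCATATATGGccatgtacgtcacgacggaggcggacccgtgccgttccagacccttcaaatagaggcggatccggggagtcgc

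On GRCh38.p14 these stretches are chr19:12791356-12791485 for JUNB, chr19:45467866-45467995 for FOSB, chr20:31605159-31605288 for ID1, chr19:48872291-48872420 for PPP1R15A and chr5:138465349-138465478 for EGR1, all on the plus strand, and chr5:172771196-172771325 on the minus strand for DUSP1. The capitals in JUNB, FOSB and ID1 are TATA boxes, those in DUSP1 and PPP1R15A a cyclic AMP response element followed by a TATA box, and those in EGR1 a pair of serum response elements. Every printed promoter had to carry 1 or more of these elements, so the sequences do not stand for all genes called higher. EGR1 and PPP1R15A were also chosen after their sequences and values were seen. EGR1, the best known EGR factor, went from 47.8 to 122 FPKM (log2 1.36), and PPP1R15A, which directs dephosphorylation of the initiation factor eIF2 alpha, from 52.3 to 89.6 FPKM (log2 0.78). Other elements were searched on both strands. The AP-1 site TGANTCA was in 7.69% of the promoters of genes called higher and in 3.4% of those of all tested genes, the ATF4 composite element in 3.42% and 1.27%, and the E-box CACGTG in 12.8% and 9.22%. NF-kB sites were found in 17.1% and 15.5%, and the GC box GGGCGG in 72.6% and 70.5%. A core of the p53 site was in 2.56% and 4.36%, which says only that these letters were or were not within 250 bases of a start. Over all 27305 promoters in the table the AP-1 site was in 6.6%, the ATF4 element in 3.19% and the E-box in 6.49%. The NF-kB site was in 12.9% of them, the GC box in 42.3% and the p53 core in 5.53%. The cyclic AMP response element was in 1.77% and the serum response element in 1.14%. Among genes called higher 9 had an AP-1 site and 4 an ATF4 element.

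Genes that dampen MAPK signalling were called in the same library. Of 17 tested members of that list 9 (52.9%) were called higher and 1 lower, with a median log2 change of 0.65. Over all tested genes 1.9% were called higher and 0.211% lower, and the median was -0.05. DUSP2, a nuclear phosphatase of ERK, went from 1.37 to 10.3 FPKM (7.53-fold, log2 2.91, SE 0.21), DUSP5 from 12 to 41.9 FPKM (log2 1.80) and DUSP1 from 41.1 to 136 FPKM (log2 1.73). ERRFI1, an inhibitor of the EGF receptor kinase, went from 35.0 to 114 FPKM, and SPRY4, a Sprouty inhibitor of the pathway, from 23.5 to 59.4 FPKM. DUSP10, which acts on JNK and p38, was at 12 and 9.75 FPKM and was not called. The gene called lower was RGS2, which speeds the shut-off of G proteins and was at 10.0 FPKM in the control and 5.25 FPKM at 2 h (log2 -0.93, SE 0.13).

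A further 10 of 16 tested genes (62.5%) on the list of TGF-beta, BMP and Notch responses were called higher and none lower (median log2 0.77). Over all tested genes 1.9% were called higher and 0.211% lower, and the median was -0.05. HES1, the repressor downstream of Notch, had the largest value, with 6.22 FPKM in the control and 46.4 FPKM at 2 h (7.46-fold, log2 2.90, SE 0.10). SMAD7, which blocks TGF-beta receptors, went from 14.5 to 53.3 FPKM, and SKIL, a co-repressor of SMAD proteins, from 9.82 to 22.6 FPKM. ID genes, whose products keep bHLH factors off DNA, were all higher, from 180 to 413 FPKM for ID1, from 37.5 to 77.8 FPKM for ID2, from 135 to 268 FPKM for ID3 and from 5.76 to 17.4 FPKM for ID4. BMP4, a ligand of the pathway, was at 13.6 and 10.4 FPKM and was not called.

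Inflammatory genes were part of the response as well, with 9 of 16 tested NF-kB targets and cytokines called higher and none lower (median log2 0.68). NFKBIA, the inhibitor that holds NF-kB in the cytoplasm, went from 19.8 to 67.9 FPKM (log2 1.78, SE 0.06). CXCL1, a neutrophil chemokine, went from 3.29 to 10.9 FPKM and IL11, a cytokine of the IL-6 family, from 13.3 to 41.1 FPKM. PTGS2, the inducible cyclooxygenase, was at 29.2 and 79.6 FPKM, CCL2 at 48.8 and 99.1 FPKM, and NFKBIZ at 4.92 and 8.77 FPKM. Of the 32 genes on the list 11 were below the level needed for testing in both libraries and 5 were not analysed here. No interferon-induced gene was called among 16 tested. Over all tested genes 1.9% were called higher and 0.211% lower, so this lack of calls is near the background and not a result about the list. The median log2 change of the 16 genes was -0.17, with IFIT1 at 8.10 and 5.47 FPKM and IFI44 at 8.65 and 6.05 FPKM.

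Of the p53 targets, 17 of 71 tested genes (23.9%, against 1.9% of all tested genes) were called higher at 2 h and none lower, while their median log2 change was 0.10. In the feedback group 3 of 7 tested genes were called higher. MDM2, the ubiquitin ligase that nutlin-3a detaches from p53 and a p53 target, went from 14.9 to 36.3 FPKM (2.44-fold, log2 1.29, SE 0.03). PPM1D, a phosphatase that reverses damage signalling, went from 4.15 to 8.32 FPKM, and PHLDA3, an AKT inhibitor, from 39.1 to 75.4 FPKM.

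Cell-cycle arrest was the role with the largest called share, 6 of 11 tested genes, against 1.9% called higher over all tested genes. It also had the highest median of any list, 0.96 on the log2 scale. CDKN1A, the CDK inhibitor p21, went from 68.6 to 212 FPKM (3.10-fold, log2 1.63, SE 0.04). BTG2, an antiproliferative factor that recruits mRNA deadenylases, went from 2.15 to 12.6 FPKM (5.88-fold, log2 2.56, SE 0.13) and GADD45A, a growth arrest gene, from 50.9 to 135 FPKM. PLK3, a stress-responsive polo-like kinase, was at 10.4 and 26.6 FPKM, SERTAD1, a CDK4 regulator, at 16.9 and 41.0 FPKM, and IER5 at 33.2 and 64.4 FPKM. Several of these genes, BTG2, GADD45A, PLK3 and IER5 among them, also respond to growth factors or to stress without p53.

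In the death group 3 of 15 tested genes were called. BBC3, which encodes the BH3-only protein PUMA, went from 1.95 to 9.42 FPKM (4.83-fold, log2 2.27, SE 0.17), TRAF4 from 11 to 21.3 FPKM and the death receptor TNFRSF10B from 25 to 42.8 FPKM. In the group of metabolism and mTOR brakes 2 of 11 were called. SESN2, a sestrin that restrains mTORC1, went from 4.53 to 18.0 FPKM (log2 1.99, SE 0.08) and DDIT4, another mTORC1 inhibitor, from 3.05 to 10.8 FPKM (log2 1.83). SESN1 was at 3.38 and 4.33 FPKM in the same libraries, below the level needed for testing. None of the 10 repair genes was called, which for so few genes is near the 1.9% called higher over all tested genes and not a result about them. The members that differed most were POLH, a translesion polymerase, at 13.5 and 15.4 FPKM, and DDB2, a damage sensor of nucleotide excision repair, at 18.3 and 20.8 FPKM.

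Among 17 other tested p53 targets 3 (17.6%) were called higher, against 1.9% of all tested genes. LIF, a cytokine of the IL-6 family, had the second largest change of all tested genes, from 0.962 to 18.8 FPKM, a log2 change of 4.24 from the floor (SE 0.15). EPHA2, an ephrin receptor, went from 50.2 to 94.2 FPKM. GDF15, a secreted p53 target, was at 0.245 FPKM in the control and 4.82 FPKM at 2 h, a 19.7-fold ratio on 7 and 156 reads, and so fell just short of the 5 FPKM asked of tested genes. On the list of p53 targets taken from the study's own text, 8 of 19 tested genes were called higher and none lower, but the study chose them on its nutlin-3a data, so this count is not independent evidence.

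**Figure D2:**
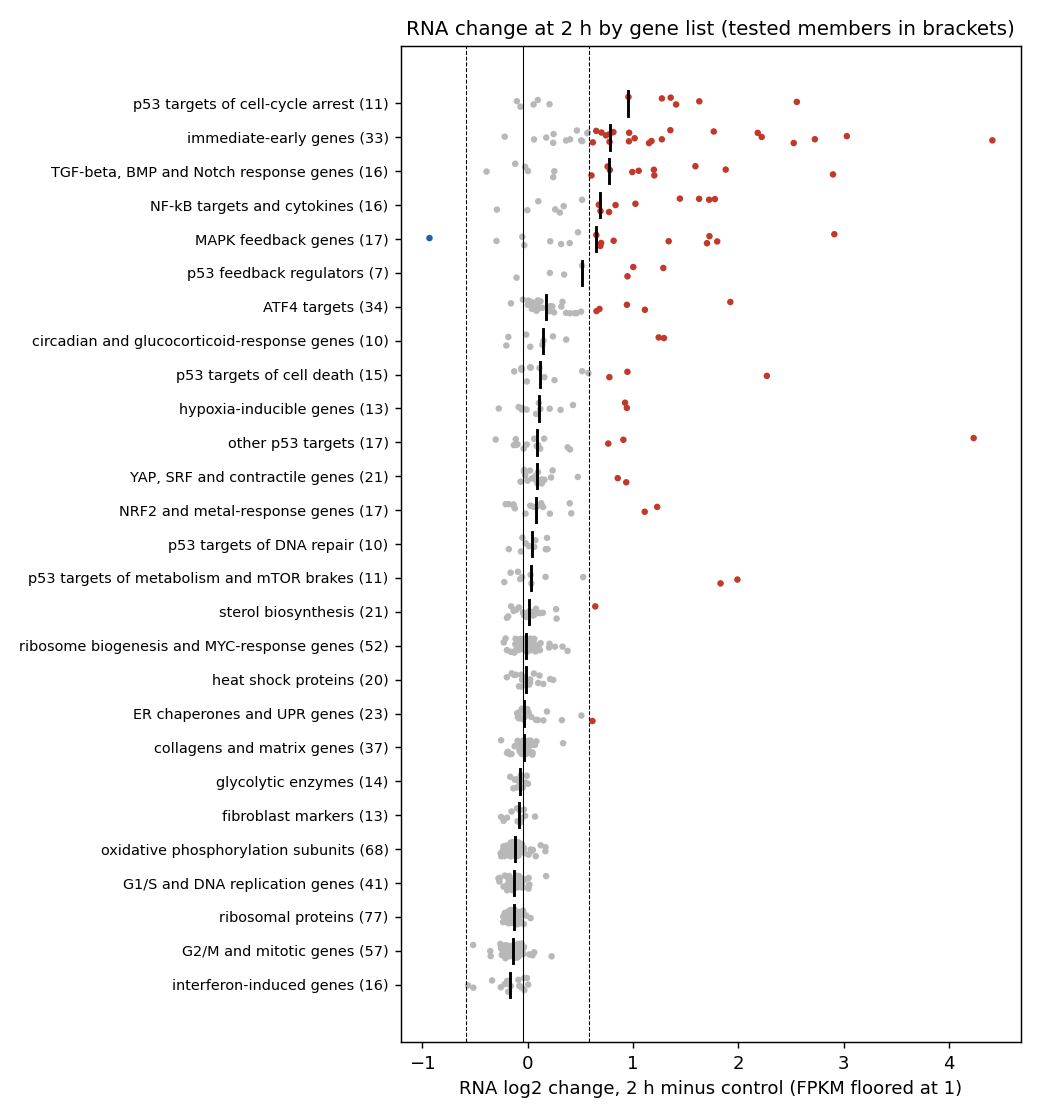
RNA log2 change at 2 h (x axis, 2 h minus control) of each tested member of 27 gene lists with at least 7 tested members, 1 point a gene, lists ordered by their median (short black bar). Dashed lines mark 1.5-fold and the thin line the median of all tested genes, -0.05. Medians of the top 5 lists lie between 0.65 and 0.96. The bottom list, interferon-induced genes, has a median of -0.17 with no gene called, where 1.9% of all tested genes were called higher and 0.211% lower.

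Called shares differed between the stress pathways, beside 1.9% higher and 0.211% lower over all tested genes. Among 34 tested ATF4 targets, the genes of the amino acid and integrated stress response, 5 (14.7%) were called higher and none lower, and the median log2 change was 0.17. CHAC1, which degrades glutathione, went from 7.58 to 28.8 FPKM (log2 1.93, SE 0.09), and CEBPB from 12.4 to 26.9 FPKM. VEGFA was at 4.97 and 9.56 FPKM, and the subunits of a large amino acid transporter, SLC7A5 and SLC3A2, were at 53.9 and 86.4 FPKM and at 52.9 and 83.2 FPKM. Of 17 tested NRF2 and metal-response genes 2 (11.8%) were called, HMOX1 (heme oxygenase 1, 23.8 and 51.5 FPKM) and SLC30A1 (a zinc exporter, 9.13 and 21.4 FPKM). HERPUD1, at 33.0 and 50.6 FPKM, was the only one called of 23 genes of the endoplasmic reticulum. Of 20 heat shock proteins none was called, DNAJB1 differing most with 58.1 and 68.7 FPKM. For lists of this size the counts of the last 2 are near the background and not a result about them.

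Some sets had only a pair of called genes each, beside 1.9% called higher and 0.211% lower over all tested genes. Most members of each set were not called, with median log2 changes of 0.14, 0.09 and 0.11 in the order given here. Of 10 tested circadian and glucocorticoid-response genes these were PER1 (3.97 and 9.74 FPKM) and SGK1 (8.61 and 20.4 FPKM), of 21 YAP, SRF and contractile genes AMOTL2 (72.6 and 139 FPKM) and LATS2 (15.2 and 27.6 FPKM), both inhibitors of YAP, and of 13 hypoxia-inducible genes the glucose transporter SLC2A3 (7.56 and 14.5 FPKM) and PFKFB3 (13.1 and 24.8 FPKM).

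Among genes of proliferation and growth none was called at 2 h. Over all tested genes 1.9% were called higher and 0.211% lower, so the lack of lower calls is near the background and not a result about these lists. They comprised 41 genes of G1/S and DNA replication, 57 of G2/M and mitosis, 52 of ribosome biogenesis, 77 ribosomal proteins, 68 subunits of oxidative phosphorylation, 14 glycolytic enzymes and 37 genes of collagens and matrix. Their medians ran from -0.14 (G2/M) to -0.01 (ribosome biogenesis) on the log2 scale. Over all tested genes the median was -0.05 and the quartiles were -0.121 and 0.042. The medians of G2/M (-0.143), ribosomal proteins (-0.126) and G1/S (-0.125) lay below that lower quartile. Log2 changes were below 0 for 53 of 57 G2/M genes, 36 of 41 of G1/S and 60 of 68 of oxidative phosphorylation. The counts were 13 of 14 for glycolytic enzymes, 26 of 37 for matrix genes and 29 of 52 for ribosome biogenesis. In the cell-cycle lists the members farthest from 0 were KIF14, a mitotic kinesin, at 11 and 7.65 FPKM, ESPL1 (separase) at 11.4 and 8.95 FPKM, ORC1 at 8.85 and 7.35 FPKM, and PRIM1 at 11.7 and 9.66 FPKM. MYC, which drives ribosome biogenesis, was at 24.2 and 28.6 FPKM. Of the ribosomal proteins 76 of 77 had a log2 change below 0, the largest being that of RPL35A, at 170 and 145 FPKM, and RPS29, at 56.0 and 47.6 FPKM. After a trend of the log2 change with transcript length (0.04 for each doubling) was removed, the median of that list was -0.10 in place of -0.13. Among genes of ribosome biogenesis WDR43 was at 23.4 and 30.5 FPKM and BOP1 at 5.03 and 6.32 FPKM.

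The 17 genes called lower formed no class fixed in the lists, since only RGS2 was on any of them. PPP1R3C, a subunit that targets protein phosphatase 1 to glycogen, went from 6.95 to 3.40 FPKM (2.05-fold lower, log2 -1.03, SE 0.12), and TXNIP, a thioredoxin inhibitor that limits glucose uptake, from 7.29 to 3.69 FPKM (log2 -0.98, SE 0.11). The abundant exception was ADAMTS1, a secreted protease, which went from 152 to 88.9 FPKM on 16908 and 11146 reads (log2 -0.78, SE 0.02). SIM1, a bHLH factor, was at 12.2 and 7.58 FPKM and EME1, a subunit of a junction-resolving nuclease, at 5.54 and 3.40 FPKM. ANKZF1 (6.2 and 3.83 FPKM), C15orf40 (5.70 and 3.50 FPKM) and C1orf53 (7.84 and 4.23 FPKM, on 110 and 67 reads) were low in both libraries. Of the 17 genes, 13 were in the lowest of 5 equal bins of expression, with a mean of the 2 libraries up to 8.49 FPKM, where the spread of all log2 changes, as a robust SD, was 0.17. In the highest bin that spread was 0.08, and counting alone gave a median SE of 0.09 in the lowest and 0.03 in the highest bin. Genes called higher were spread over the bins, with 33 in the lowest and 36 in the highest.

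Genes on both sides of the 1.5-fold mark were close together. FAM100A (11.1 and 16.7 FPKM, 1.505-fold) and BDNF (11.9 and 18.0 FPKM, 1.518-fold) were just inside on the upper side, and C3orf52 (4.57 and 6.85 FPKM, 1.497-fold) and ZNF281 (10.6 and 15.8 FPKM, 1.493-fold) just outside. On the lower side GAS1 (8.34 and 5.55 FPKM) was the last gene inside and LHX9 (33.0 and 22.0 FPKM) the first outside.

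The later RNA-Seq libraries give the levels of the named genes at later times. They share the control library with the comparison at 2 h, so their levels are given side by side only. Of the 20 genes with the largest rise, 15 had their highest level of the 5 libraries at 2 h and 5 had it at 4 h, which in part follows from choosing them at 2 h. EGR3 was at 2.91, 1.65 and 2.69 FPKM at 4, 6 and 19 h, after 27.2 FPKM at 2 h. JUNB was at 32.0, 36.4 and 40.3 FPKM after 151 FPKM, FOSB at 0.316, 0.290 and 0.430 FPKM after 5.76 FPKM, and HES1 at 6.77, 4.65 and 5.81 FPKM after 46.4 FPKM. By 4 h each of these 4 transcripts was nearer to its control level than to its 2 h level, and JUNB stayed above its 22.9 FPKM of the control throughout.

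Counted over all 153 genes called higher at 2 h, 25 were higher still at 4 h and 128 were lower than at 2 h. These genes were chosen for a high value in the 1 library at 2 h, so lower levels at 4 h in part follow from that choice. The same choice lies behind the counts for each list. Of the 21 immediate-early genes called, 1 (RHOB) was higher at 4 h than at 2 h, and of the 10 genes of the TGF-beta, BMP and Notch list none was.

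Of the 17 p53 targets called at 2 h, 12 were higher at 4 h than at 2 h, and EPHA2, GADD45A, IER5, LIF and SERTAD1 were lower. CDKN1A was at 915, 1204 and 1316 FPKM at 4, 6 and 19 h, after 212 FPKM at 2 h. MDM2 was at 203, 254 and 259 FPKM after 36.3 FPKM, and BTG2 at 64.1, 50.5 and 54.4 FPKM after 12.6 FPKM. For all 3 the 2 h level lay between that of the control and every later one. GDF15, at 4.82 FPKM at 2 h, was at 70.7 FPKM at 4 h and 13.1 FPKM at 6 h. SESN2 (37.5 FPKM), DDIT4 (34.2 FPKM), BBC3 (18.9 FPKM) and CHAC1 (37.4 FPKM) were also highest at 4 h. LIF was at 10.6, 3.33 and 4.39 FPKM at 4, 6 and 19 h, after 18.8 FPKM at 2 h. DDB2, a repair gene not called at 2 h, was at 43.7, 59.3 and 53.5 FPKM at the later times, and SESN1, which was not tested at 2 h, was at 20.4, 24.1 and 22.6 FPKM.

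**Figure D3:**
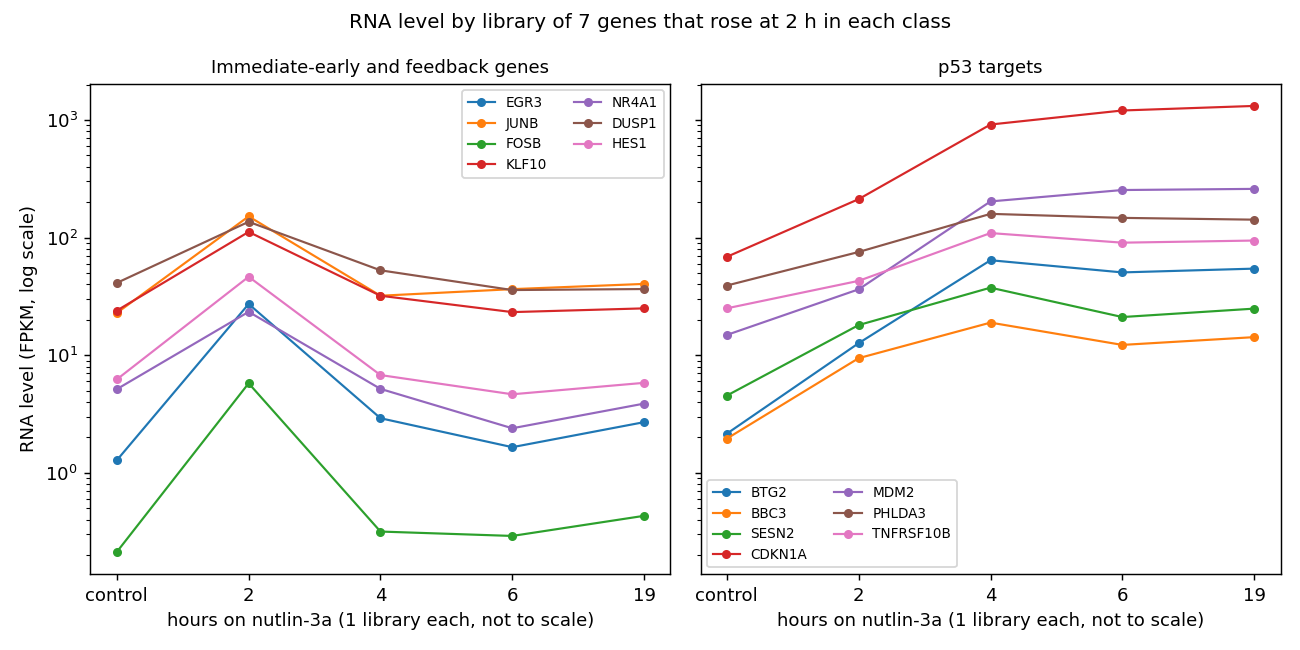
RNA level (y axis, FPKM, log scale) in each of the 5 RNA-Seq libraries (x axis, hours on nutlin-3a, not to scale) of 7 immediate-early and feedback genes (left) and 7 p53 targets (right) that were called higher at 2 h, 1 point a library with no error bar. The left genes have their highest point at 2 h, JUNB at 151 FPKM and EGR3 at 27.2 FPKM, while the right genes are higher at 4 h than at 2 h, CDKN1A going from 212 to 915 FPKM. The genes were picked by hand and not by a rule, so the panels do not stand for their whole classes. Of 17 called p53 targets 5, none of them shown, were lower at 4 h than at 2 h. RHOB (immediate-early) and PHLDA1 (MAPK feedback), also not shown, were higher at 4 h.

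The Ribo-Seq libraries of the control and 2 h give a readout that shares no library with the RNA comparison, although the labels do not say whether the same cultures were used. Among 6594 RNA-tested genes with at least 5 FPKM in either of these libraries, 457 (6.93%) were at least 1.5-fold higher and 179 (2.71%) at least 1.5-fold lower. All 153 genes called higher in RNA were in the Ribo-Seq table and 141 could be assessed. Of these, 114 (80.9%) were at least 1.5-fold higher in Ribo-Seq, none was 1.5-fold lower, and 140 had a log2 change above 0, against 51.4% of all genes assessed. Their median Ribo-Seq log2 change was 1.01, against 0.00 for the 6442 genes not called in RNA. Some, such as EGR3 (0.471 and 11.1 FPKM) and NR4A1 (0.92 and 20.1 FPKM), reached 5 FPKM in the 2 h Ribo-Seq library alone. For such genes a higher value in Ribo-Seq was fixed by the filter, so the shares in part follow from it.

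The size of the change was alike in both readouts for some genes and not for others. In the Ribo-Seq libraries JUNB went from 28.4 to 251 FPKM, HES1 from 9.97 to 80.2 FPKM and CDKN1A from 164 to 488 FPKM, log2 changes of 3.14, 3.01 and 1.57 beside 2.73, 2.90 and 1.63 in RNA. NR4A1 had the higher value in Ribo-Seq, from 0.920 to 20.1 FPKM (log2 4.33 from the floor, beside 2.19 in RNA). MDM2 had the lower one, from 5.45 to 8.25 FPKM, a log2 change of 0.60 beside 1.29 in RNA. SKIL was at 5.09 and 6.91 FPKM (log2 0.44 beside 1.2).

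Of the 17 genes called lower in RNA 11 could be assessed in Ribo-Seq, and 4 were at least 1.5-fold lower there, 1 was 1.5-fold higher and 8 had a log2 change below 0. RGS2 went from 7.78 to 4.14 FPKM in Ribo-Seq (log2 -0.91), next to its -0.93 in RNA. It reached 5 FPKM in the control Ribo-Seq library alone, so its direction there was fixed by the filter. ADAMTS1 was the gene that was higher, from 90.6 to 138 FPKM in Ribo-Seq (log2 0.61) while its RNA was at -0.78. Collagens and matrix genes also differed between readouts, with no gene of 37 called in RNA (median log2 -0.04) and 24 of 37 at least 1.5-fold higher in Ribo-Seq (median 1.04). Over all genes assessed in Ribo-Seq 6.93% were at least 1.5-fold higher and 2.71% lower. In RNA 1.9% of all tested genes were called higher and 0.211% lower, so the lack of RNA calls is near the background and not a result about the list. THBS1, a matrix glycoprotein, was at 1003 and 1266 FPKM in RNA and at 601 and 1515 FPKM in Ribo-Seq. Such a difference was not particular to matrix genes. On the list of YAP, SRF and contractile genes 2 of 21 were called higher in RNA. In Ribo-Seq 6 of 20 were at least 1.5-fold higher, beside the 6.93% of all genes assessed. Among them MYH9 had log2 changes of 0.10 in RNA and 1.43 in Ribo-Seq, and FLNA of 0.09 and 1.34.

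**Figure D4:**
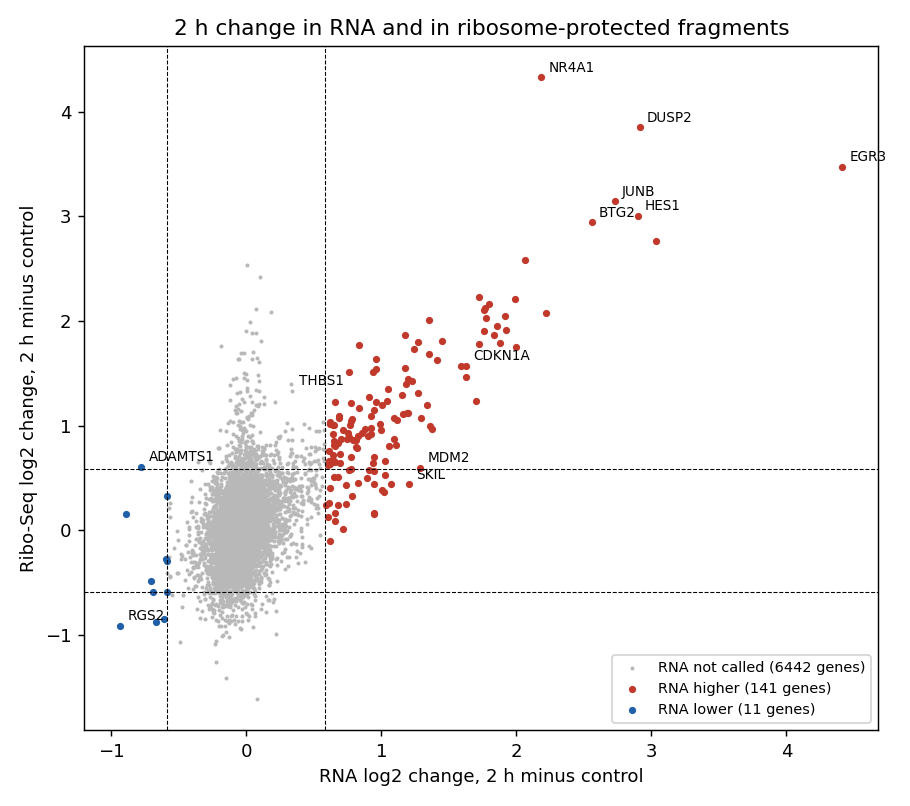
Log2 change at 2 h in RNA (x axis) and in Ribo-Seq (y axis), each against the control library of its own assay, for 6594 genes assessed in both, 1 point a gene. Dashed lines mark 1.5-fold. Of the 141 genes called higher in RNA (red) 114 lie above the upper horizontal line, and of the 11 called lower (blue) 4 lie below the lower one. Genes below 5 FPKM in 1 Ribo-Seq library entered through the other alone, which fixed their direction there.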

How the data were processed

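RNA-Seq and Ribo-Seq values of BJ cells were used as the authors deposited them, in FPKM with 3 decimals, 1 column a library and no pooling. In the study's methods, reads were aligned by the authors to a single protein-coding transcript per gene (Ensembl release 65) and kept unique hits, so reads shared by paralogs are lost; the submitters' processing notes name Bowtie and hg19. The table named for both assays was read as RNA-Seq. Groups came from the labels. Whole reads and transcript lengths were inferred from the steps between values for 99.8% of tested genes and gave counting errors only. Levels were floored at 1 FPKM, genes needed 5 FPKM in either library, and 1.5-fold was the call; calls and recovery were tested on simulated data. The text names the 20 largest rises, the 10 largest falls, up to 6 called members of each of 33 lists (where fewer than 2 were called, the 2 that differed most) and 9 fixed genes, though some of these genes are not reported here. Members and lists were chosen with earlier results of these data known. Gene IDs were matched to RefSeq promoters by current symbol. Python 3, numpy and pandas were used.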

Additional observations from a re-analysis of the deposited data

Results flagged for a closer look

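Some named genes were past 1.5-fold in one direction at 2 h and in the opposite direction at a later time, both against the same control library, and none of these differences was tested. CXCL1 had a log2 change of 1.72 at 2 h, against -1.72 and -1.60 in the libraries of 6 and 19 h, with levels of 3.29 FPKM in the control, 10.9 FPKM at 2 h and 0.695 FPKM at 6 h. EDN1 had 2.06 at 2 h, followed by -0.61 (6 h) and -1.06 (19 h). NR4A1, the orphan nuclear receptor, had 2.19 at 2 h and -1.10 at 6 h. Among regulators of growth factor signals, ERRFI1 had 1.70 at 2 h and -0.69 at 6 h, and SPRY4 1.34 and -0.60. The reverse order was seen for TXNIP, with -0.98 at 2 h and then 0.92, 1.16 and 0.68 in the libraries of 4, 6 and 19 h. PPP1R3C had -1.03 at 2 h, followed by 0.88 (6 h) and 0.90 (19 h), and RGS2 had -0.93 at 2 h and 0.92 at 19 h. Every value rests on 1 library a time.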

How the results depend on the processing

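The choices behind the calls were varied 1 at a time; the promoter window, the motifs and the Ribo-Seq filter were not. The 153 genes called higher became 143 with a floor of 5 FPKM, 141 with 1 FPKM added in place of the floor, 166 with changes centred on the median, 159 after rescaling without the 50 most abundant transcripts, 141 with the length trend removed, 191 with no filter and 153 with over 2 counting SEs also asked. The 17 called lower became 13 after rescaling, 20 with the length trend removed and 17 with counting SEs asked, but 8 with a floor of 5 FPKM, 8 with 1 FPKM added, 11 after centring and 92 with no filter, so their number rests on these settings. A mean of at least 20 FPKM left 71 higher and 1 lower, 2-fold left 67 and 1, a sliding cut-off of local SDs along expression gave 273 and 91, and 1.2-fold, an alternative chosen after seeing the data, gave 457 and 344. Of 66 named genes that were called, all 66 kept their call after centring, rescaling, with the length trend removed and with no filter, 63 kept it with 1 FPKM added and 60 with a floor of 5 FPKM.

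Against the 4 h library as baseline the counts were 347 higher and 180 lower, and 45 of 64 named genes kept their sign. The named genes whose sign turned were BBC3 (-1.005), BTG2 (-2.34), CCL2 (-0.45), CDKN1A (-2.11), CHAC1 (-0.38), DDIT4 (-1.66), HMOX1 (-0.23), MDM2 (-2.48), PHLDA3 (-1.08), PLK3 (-0.41), PPM1D (-0.80), SESN2 (-1.06), SLC30A1 (-0.42), SLC3A2 (-0.35), SLC7A5 (-1.06), TNFRSF10B (-1.35), TRAF4 (-0.66), RGS2 (0.0022) and SIM1 (0.060). Of 31 lists 15 kept the sign of their median there, and of the lists with a median past 1.5-fold those that turned were p53 targets of cell-cycle arrest (-0.38) and NF-kB targets (-0.087). No paired analysis was possible because each group holds 1 library, and for the same reason no replicate could be left out. The 4 h library is itself of treated cells, so this baseline asks another question than a change of processing does. The sign of a called gene turned where its level at 4 h lay farther from the control than at 2 h, in the same direction. CDKN1A, for example, was at 212 FPKM at 2 h and 915 FPKM at 4 h. The cause of the changes between 2 h and 4 h was not tested.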

Other observations

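Of 153 genes called higher 72 were on no fixed list. Some gene families were grouped after their values were seen, so their counts are descriptions, and some of their members are also on the fixed lists. Over all tested genes 1.9% were called higher and 0.211% lower. Of 8 tested secreted growth factors 4 were called higher: EDN1 (endothelin 1) went from 3.07 to 12.8 FPKM and HBEGF, an EGF receptor ligand, from 6.50 to 22.0 FPKM, while VEGFA was at 4.97 and 9.56 FPKM and PDGFA at 3.11 and 5.53 FPKM. Both measured GADD45 genes were higher, GADD45B going from 25.2 to 90.9 FPKM. Of 5 tested SOCS genes, which end cytokine signals, SOCS3 alone was called, at 11.6 and 26.6 FPKM. ZC3H12A, an endonuclease that degrades inflammatory mRNAs, went from 2.91 to 11 FPKM. Among 11 tested Kruppel-like factors KLF10 and KLF7 were called, and 10 of the 11 had a log2 change above 0.

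Of 18 tested transcription factors of limb and mesenchyme, also grouped after their values were seen, 4 were called higher and 3 lower. Over all tested genes these shares were 1.9% and 0.211%. DLX2 went from 9.68 to 38.7 FPKM, SNAI1 from 3.53 to 7.97 FPKM, SNAI2 from 32.7 to 68.8 FPKM and FOXC2 from 13.5 to 28.0 FPKM. SIM1, HOXA13 (10.4 and 6.54 FPKM) and OSR2 (16.8 and 11.1 FPKM) were lower, and LHX9, at 33.0 and 22.0 FPKM, lay just outside 1.5-fold. At 4 h these last 4 were still below the control, and at 19 h HOXA13 was at 11.6 FPKM and OSR2 at 25 FPKM. Among the 5 alpha-arrestins, the family of TXNIP, TXNIP alone was called, while ARRDC4 was at 29.6 and 20.0 FPKM (log2 -0.56) and ARRDC3 at 8.53 and 6.16 FPKM (log2 -0.47).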
